A study of Mus musculus with 13 samples.

Results

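Damaged hepatocytes cultured without forskolin (5C-F) were compared with damaged hepatocytes cultured without ETC-1002 (5C-E), across all genes of the count table. The pair was chosen because Alb, the transcript of serum albumin, had its highest level of the single-compound removals in 5C-F and its lowest in 5C-E. Each group had 2 libraries, so 4 of the 13 libraries and 2 of the 7 groups of the series entered the comparison itself. The cells, dHeps, were wild-type hepatocytes taken from livers of C57BL/6 mice with chronic carbon tetrachloride (CCl4) injury and kept in serum-free Hepatocyte Maintenance Medium for 16 days. They were obtained by collagenase perfusion and plated on collagen, no sort is described for them, and their age is not in the labels. The full cocktail (5C) held Salidroside, a plant glycoside, CID755673, a protein kinase D inhibitor, forskolin, an adenylate cyclase activator, GSK429286A, a ROCK inhibitor, and ETC-1002, an AMPK activator. The 5C-F cells therefore received Salidroside, CID755673, GSK429286A and ETC-1002, and the 5C-E cells received Salidroside, CID755673, GSK429286A and forskolin. The groups differ by a pair of compounds, 1 absent from each, and a difference between them cannot be ascribed to either compound by this comparison. For that reason, levels in the full cocktail and in the solvent DMSO are given beside the main values of some genes and lists. Nothing in the labels says whether the libraries of a group came from separate mice or cultures. The paper states that n counts separate biological replicates and gives n = 2 for its heatmap of the removals. The p-values measure only the spread between libraries within groups, pooled over the 13 libraries. Whether that spread covers different mice or only different cultures is not known.

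Hepatocytes secrete most plasma proteins, clear drugs with cytochrome P450 enzymes, make bile acids and glucose, and detoxify ammonia, and they lose these functions in culture and in chronic injury. Forskolin raises cyclic AMP, which activates protein kinase A and the transcription factor CREB, the pathway by which glucagon switches on gluconeogenic genes. ETC-1002, also known as bempedoic acid, is coupled to coenzyme A by the acyl-CoA synthetase encoded by Slc27a2 and then inhibits ATP citrate lyase (Acly), the enzyme that supplies cytosolic acetyl-CoA for fatty acid and sterol synthesis.

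Total counts were 38668923 and 41906389 in the 5C-F libraries, called A and B here, and 36360797 and 32595945 in the 5C-E libraries A and B. The letters follow column order, and nothing in the labels pairs them across groups. The 10 most abundant genes held 10.7% and 9.66% of the counts in 5C-F and 6.78% and 6.44% in 5C-E. Library B differed from library A along GC content within both groups, with a Spearman correlation across 12569 genes of 0.55 in 5C-F and 0.56 in 5C-E, whereas the difference between the group means had a correlation of 0.04. Between libraries B and A of the other groups it was 0.30 in 5C-C and 0.44 in 5C-G, but 0.04 in 5C and -0.04 in DMSO. Those correlations describe genes that share the same libraries. The hepatocyte markers Alb, Ttr, Apoa1, Apob, Serpina1a, Hnf4a and Cebpa were present in all 4 libraries, with Ttr, the thyroid hormone carrier transthyretin, at 103 FPKM or more. Transcripts of other liver cells were present too, including Col1a1 at 298 FPKM or more and Lyz2, a macrophage lysozyme, at 294 FPKM or more, and in bulk RNA fewer cells of a type and less RNA per cell cannot be told apart.

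Alb stood at 18255 and 13341 FPKM (fragments per kilobase of gene length, scaled to the library total) in 5C-F and at 2719 and 2122 FPKM in 5C-E. The group means were 15798 ± 3475 and 2421 ± 422 FPKM (SD, n = 2), a ratio of 6.53 ± 1.83. This difference chose the pair and is given as a description. The full cocktail lay between them at 9437 and 9425 FPKM, and so did DMSO at 9711 and 8604 FPKM. The other removals were at 4136 and 4482 FPKM (5C-G), 5143 FPKM (5C-S, 1 library) and 3433 and 2553 FPKM (5C-C). In the order of means, 5C-C and 5C-E were neighbours whose libraries overlapped, as were 5C and DMSO, while both 5C-F libraries exceeded every other library of the series. Alb took 4.28% and 3.13% of all counts in 5C-F against 0.638% and 0.498% in 5C-E.

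**Figure D1:**
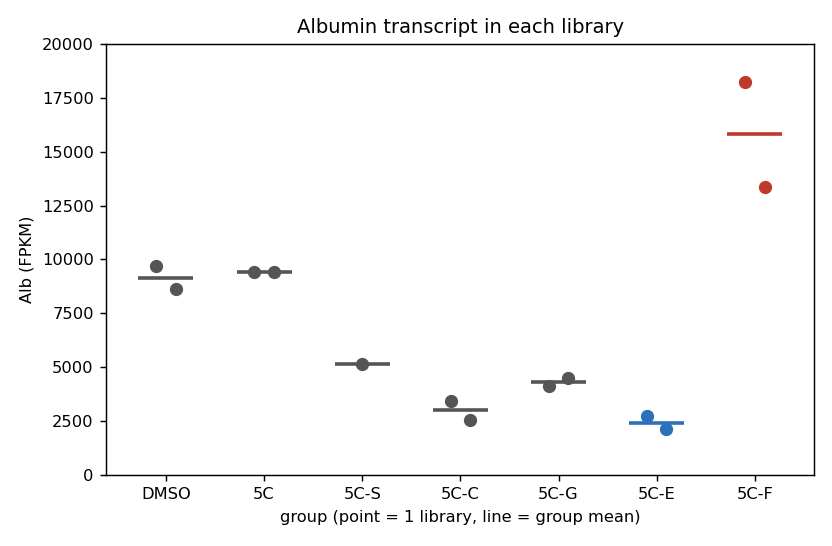
Alb level (FPKM, linear axis) in each of the 13 libraries, by group, with 1 point per library and a bar at the group mean. The 5C-F libraries sit at 18255 and 13341 FPKM, above all others, and the 5C-E libraries at 2719 and 2122 FPKM, in the same range as 5C-C.

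The promoter of Alb carries GTTAAT, a core motif of many liver gene promoters, just before its start, and this sequence is shown because the same letters recur among the secreted protein genes described next. The 250 bases before the start of the canonical GENCODE transcript, at chr5:90608499-90608748 of GRCm39 on the plus strand, read as follows, with GTTAAT in capitals at positions -52 to -47 (the base before the start is -1).
Alb: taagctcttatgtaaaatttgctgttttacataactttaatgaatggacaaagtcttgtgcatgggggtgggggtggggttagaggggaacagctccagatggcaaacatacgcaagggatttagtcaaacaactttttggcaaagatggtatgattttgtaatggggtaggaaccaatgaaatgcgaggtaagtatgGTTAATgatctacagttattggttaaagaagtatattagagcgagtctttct

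Across the table, 19884 of 27141 genes passed the filter on low counts and were tested with edgeR's quasi-likelihood test. A gene was called when its Benjamini-Hochberg adjusted p was under 0.05 and its log2 fold change (5C-F over 5C-E) was beyond 1, and every adjusted p given with a gene is from this test over all tested genes. In all, 884 genes (4.45% of those tested) were higher in 5C-F and 854 (4.29%) were lower. The median log2 fold change of all tested genes was -0.01. The called genes divided almost evenly, with 50.9% higher, but this split depended on scaling. It was 634 higher and 1265 lower with total counts alone and 651 and 1115 with limma on log2(FPKM + 0.1), both of which also moved the median of all genes, to -0.18 and -0.16, and it was 1061 and 674 with an offset for GC content and gene length. No gene was called in the opposite direction under any of the alternatives tried. Libraries of the groups did not overlap for 1736 of the 1738 called genes, against 57.6% of all tested genes. The call itself favours such separation, so this count adds no separate evidence. A mean of 5 FPKM or more in the group where the gene was higher was found for 568 of the higher genes (in 5C-F) and 338 of the lower genes (in 5C-E).

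**Figure D2:**
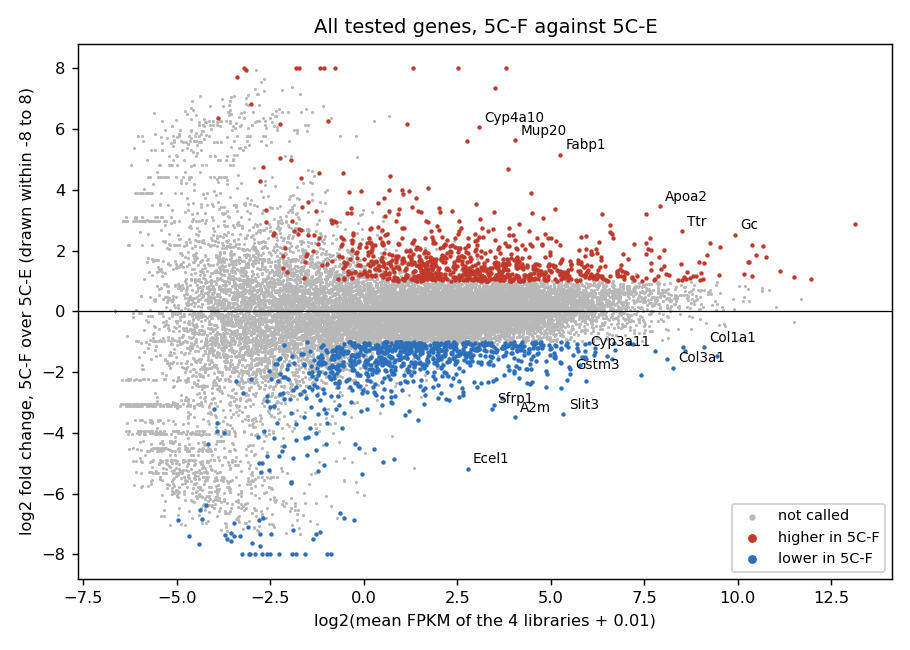
Log2 fold change (5C-F over 5C-E, vertical axis) against the mean level of the 4 libraries (log2 of FPKM + 0.01) for the 19884 tested genes, with the 884 called higher, the 854 called lower and the rest in separate colours. Named liver genes such as Fabp1 and Apoa2 lie in the upper part and Slit3 and A2m in the lower part.

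Placed beside the full cocktail, most called genes were spread on both sides of it. The 5C mean lay between the group means for 688 of the 884 higher genes and for 760 of the 854 lower genes. Both removals were above 5C for 113 of the higher genes and below it for 83, and the corresponding numbers for the lower genes were 14 and 79.

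The list of secreted plasma proteins had the largest share of genes called higher among the lists (74.2%, against 4.45% of all tested genes). Of 62 tested genes of this list, Alb apart, 46 were higher in 5C-F, none was lower, and all 62 had a positive log2 fold change, with a median of 1.58. Alb, which chose the pair, belongs to the same class of genes, so this count is not independent evidence of the direction. Between 41 and 47 of the list were called when 1 library was left out. Their summed level was 21082 and 21807 FPKM in 5C-F and 8217 and 8300 FPKM in 5C-E, with 5C at 13412 and 13210 FPKM and DMSO at 15609 and 15123 FPKM.

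Apoa2 (chr1:171049125-171053948), the second most abundant protein of high-density lipoprotein, was at 481 and 393 FPKM in 5C-F and 51.1 and 38.2 FPKM in 5C-E. It rose 11-fold (log2 3.46 ± 0.27 SE, adjusted p = 4.9e-07) and was at 300 and 257 FPKM in 5C. Ttr was at 644 and 587 FPKM against 122 and 103 FPKM, a 6.17-fold difference (adjusted p = 4.7e-07). The libraries of the groups were far apart for both genes, and 5C lay between. Gc, the vitamin D carrier, was at 1823 and 1439 FPKM against 328 and 309 FPKM (5.77-fold, adjusted p = 2.5e-07). Afm, which encodes the vitamin E carrier afamin, was at 5.57 and 4.16 FPKM against 0.705 and 0.413 FPKM (9.78-fold), and C6, a subunit of the complement membrane attack complex, was at 0.552 and 0.575 FPKM against 0.0618 and 0.0517 FPKM (11-fold). Serpina1d, one of several near-identical copies of alpha-1-antitrypsin between which counting can split reads, was at 82.5 and 43.1 FPKM against 6.26 and 7.64 FPKM. The list ran from such carriers and inhibitors to coagulation factors such as prothrombin (F2, 112 and 122 FPKM against 33.1 and 36.3 FPKM, 3.78-fold) and to Afp, the fetal albumin relative, at 107 and 79.4 FPKM against 18.9 and 19.7 FPKM (5.45-fold).

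The fibrinogen chains did not follow. Fga was at 297 and 303 FPKM in 5C-F and 301 and 297 FPKM in 5C-E (log2 0.18 ± 0.17, adjusted p = 0.53), and Fgb and Fgg had log2 fold changes of 0.35 each with adjusted p of 0.17 and 0.18. Fibrinogen is also an acute phase protein, induced by interleukin 6. Other acute phase genes were mixed, with 5 of 20 higher, 1 lower and a median of 0.16 that was -0.01 with total counts alone, 0.00 without 5C-F B and 0.36 without 5C-E B. Hp (haptoglobin, which binds free haemoglobin) was at 1886 and 1800 FPKM against 627 and 703 FPKM (3.12-fold, adjusted p = 4.9e-06), Hamp (the iron hormone hepcidin) rose 2.89-fold and Crp (C-reactive protein) 2.61-fold. Socs3, the feedback inhibitor of interleukin 6 signalling, fell 3.09-fold, from 38.4 and 52.9 FPKM in 5C-E to 8.42 and 18.1 FPKM in 5C-F (adjusted p = 0.00047). The transcript of interleukin 6 itself, Il6, was low, at 0.0425 and 0.137 FPKM in 5C-F and 1.02 and 0.542 FPKM in 5C-E, and its call (log2 -2.93, adjusted p = 0.0075) was lost without 5C-E A (log2 -2.44, adjusted p = 0.078) or 5C-F A (log2 -2.37, adjusted p = 0.08).

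The motif GTTAAT, searched on both strands from 250 bases before to 50 bases after the start, was found in 20 of the 62 plasma protein promoters (32.3%). It was found in 867 of 15583 promoters of tested protein-coding genes (5.56%), in 103 of 843 genes called higher (12.2%) and in 30 of 788 called lower (3.81%). Gc, Afm, Afp, F2 and C6 were among the 20 genes, and so were Fga and Fgb, which were not called.

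Hepatocyte transcription factors were higher in 5C-F for 9 of 20 tested genes and lower for none, with a median of 0.99. At an unadjusted p under 0.05 edgeR counted 1 as lower, and 2 were called lower without 5C-F B and 2 with limma on log2(FPKM + 0.1). The count of higher genes was 5 without 5C-E A. Foxa3, a forkhead pioneer factor, was at 15.7 and 10.6 FPKM against 3.17 and 3.38 FPKM (4.54-fold, adjusted p = 6.3e-05). Nr1h3 (the oxysterol receptor LXR alpha) was at 19.3 and 19.3 FPKM against 6.43 and 8.05 FPKM (3-fold), and Cebpa, a regulator of mature hepatocyte genes, at 36.6 and 34.8 FPKM against 11 and 16.1 FPKM (2.97-fold). Nr1h4, the bile acid receptor FXR, rose 2.74-fold, and the libraries did not overlap for any of these genes. Hnf4a, the central hepatocyte nuclear receptor, was at 24.1 and 31.7 FPKM against 16.7 and 17.3 FPKM, and its log2 fold change of 0.88 ± 0.17 (adjusted p = 0.0021) stayed under the fold threshold, except with the GC offset or without 5C-F A, where it was called. Foxa2 was at 8.38 and 12.4 FPKM against 4.29 and 6.1 FPKM (2.24-fold, adjusted p = 0.0084), and its call was lost without 5C-E A (log2 0.90, adjusted p = 0.13) or 5C-F B (log2 0.90, adjusted p = 0.077). Gata4, also expressed by stellate and endothelial cells, was at 10.6 and 13.8 FPKM against 25.7 and 26.2 FPKM (log2 -0.92 ± 0.17, adjusted p = 0.0011), under the fold threshold.

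Genes of the PPAR alpha and fatty acid oxidation list held several of the largest fold changes of the comparison. PPAR alpha is the fatty acid receptor that drives peroxisomal, microsomal and mitochondrial fatty acid oxidation in the liver. Of 34 tested genes, 17 were higher and none lower, with a median of 1.04, and between 13 and 16 were called when 1 library was left out. Fabp1 (chr6:71176809-71182016), the fatty acid carrier of hepatocyte cytosol, was at 60.8 and 86.1 FPKM in 5C-F and 2.78 and 1.77 FPKM in 5C-E (35.8-fold, log2 5.16 ± 0.34, adjusted p = 9.2e-08). It was at 42.2 and 28 FPKM in 5C and at 5.63 and 5.92 FPKM in DMSO, so that 5C-E lay below even the solvent. Cyp4a14, a fatty acid omega-hydroxylase, had 3538 and 2285 counts in 5C-F and 0 in both 5C-E libraries, which is at least 1661-fold higher against a floor of 3 counts over the group. This and the other such bounds would be lower if both mates of a fragment were counted. Cyp4a10, another omega-hydroxylase, was at 20.9 and 12.2 FPKM against 0.351 and 0.203 FPKM (66.7-fold, adjusted p = 9.4e-07), and Cyp4a31 was 13.3-fold higher. The Cyp4a genes are near-identical copies, and reads may have been split between them. Their common level was far higher in 5C-F than in 5C-E whichever copy the reads came from.

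Enzymes outside the Cyp4a cluster moved by less. Acaa1b, a peroxisomal thiolase, rose 6.52-fold, from 3.01 and 3.51 FPKM in 5C-E to 19.7 and 18 FPKM in 5C-F. Ehhadh, the peroxisomal bifunctional enzyme, rose 4.25-fold. The mitochondrial entry enzyme Cpt1a was at 17.2 and 18.5 FPKM against 22.5 and 20.7 FPKM (log2 -0.11 ± 0.18, adjusted p = 0.75), and Ppara itself was at 1.9 and 1.62 FPKM against 1.38 and 1.55 FPKM (log2 0.44 ± 0.36, adjusted p = 0.46). Neither the receptor nor this enzyme of the carnitine shuttle was called.

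PPAR alpha and HNF4A both bind direct repeats of AGGTCA-like sites with 1 base between them. The search used AGGNCA, 1 base, AGGNCA, on both strands, and the pattern was rare, in 60 of 15583 promoters (0.385%), 11 of 843 genes called higher (1.3%) and 1 of 788 called lower (0.127%). The promoters of Fabp1, Cyp2d10 and F7 are shown because they belong to genes called higher from 3 different lists. Fabp1 is given as the 250 bases before its start (chr6:71176559-71176808, plus strand, repeat at -13 to -1), Cyp2d10 as 53 bases (chr15:82291420-82291472, minus strand, repeat at -48 to -36) and F7 as 53 bases (chr8:13075980-13076032, plus strand, repeat at -34 to -22), all of GRCm39 with the repeat in capitals.
Fabp1: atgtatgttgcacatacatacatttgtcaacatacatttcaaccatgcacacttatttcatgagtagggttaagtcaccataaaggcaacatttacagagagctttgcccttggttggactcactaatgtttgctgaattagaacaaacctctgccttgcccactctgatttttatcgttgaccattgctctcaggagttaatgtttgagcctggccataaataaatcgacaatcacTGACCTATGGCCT
Cyp2d10: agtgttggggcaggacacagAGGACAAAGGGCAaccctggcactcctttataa
F7: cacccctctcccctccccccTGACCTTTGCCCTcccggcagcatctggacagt
The repeats of Fabp1 and F7 lie on the opposite strand, so the capitals show the reverse complement. Cyp2d10, a P450 of the debrisoquine family, was at 108 and 104 FPKM in 5C-F and 34.2 and 29.7 FPKM in 5C-E (3.74-fold, adjusted p = 1.6e-05). F7, coagulation factor VII, was at 5.21 and 5.16 FPKM against 2.87 and 2.77 FPKM, and its call (log2 1.05, adjusted p = 0.022) was lost with any 1 of the libraries left out, at log2 1.05, 1.02, 1.00 and 1.10 with adjusted p of 0.12, 0.12, 0.095 and 0.051 without 5C-E A, 5C-E B, 5C-F A and 5C-F B.

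Of 40 listed cytochrome P450 genes, 5 were not tested. For 1 of them the count table had no entry under its listed symbol, and the rest had too few counts. Of the 35 tested members, 19 were higher in 5C-F and 2 were lower, with a median of 1.90. That median was 1.54 without 5C-F A, where the plasma protein median was 1.81, and 0.94 with limma on log2(FPKM + 1), where the plasma protein median was 1.33. Counts of 17 to 20 higher genes were found when 1 library was left out. The Cyp2c subfamily of drug and arachidonic acid hydroxylases led. Cyp2c29 was at 395 and 270 FPKM in 5C-F and 50.8 and 30.5 FPKM in 5C-E (9.25-fold, adjusted p = 6.8e-07), with 5C at 170 and 165 FPKM and DMSO at 1.67 and 1.14 FPKM. Cyp2c37 was at 31.3 and 14.2 FPKM against 0.211 and 0.101 FPKM (162-fold), and Cyp2c50 at 16.7 and 9.82 FPKM against 0.414 and 0.189 FPKM (49.3-fold). Cyp2c54 had 413 and 302 counts against 0 and 2, a ratio of 306 with a counting interval of 84.4 to 2531. All of these exceeded the full cocktail in both 5C-F libraries. Copies of this subfamily share sequence, so the split between them is uncertain.

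The other P450s named next followed the same direction, while 7 of the 35 tested had a negative log2 fold change. Cyp2b10, the classical target of the xenobiotic receptor CAR, was at 194 and 139 FPKM against 30.7 and 21.6 FPKM (7.2-fold, adjusted p = 5.2e-07), and Cyp2b9 had 84 and 56 counts against 0 and 0, at least 39.9-fold higher, although its call needed both 5C-E libraries (adjusted p = 0.064 without 5C-E A and 0.057 without 5C-E B). Cyp2e1, the ethanol- and CCl4-oxidising P450 of the pericentral zone, was at 51.6 and 31.5 FPKM against 4.39 and 1.87 FPKM (15-fold, adjusted p = 1.1e-06). Its levels in 5C (75.5 and 73.1 FPKM) and DMSO (108 and 112 FPKM) were above both removals. Cyp1a2, a caffeine-oxidising P450, rose 6.27-fold from 1.02 and 1.1 FPKM. Pon1, the serum paraoxonase, was at 6.87 and 5.37 FPKM against 0.417 and 0.402 FPKM (16.8-fold). Spink1, a trypsin inhibitor, was the last of the 12 leading genes, at 11.3 and 3.39 FPKM against 0.979 and 0.588 FPKM (10.6-fold, adjusted p = 0.0014). Of 35 P450 promoters, 17 (48.6%) held TATAAA on either strand, against 9.26% of all promoters searched, 18.3% of those of genes called higher and 7.87% of those of genes called lower.

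A few genes of drug and bile acid handling ran the other way. Cyp3a11 (a main drug-oxidising P450 of mouse liver and a target of the xenobiotic receptor PXR) was at 42.2 and 21.3 FPKM in 5C-F and 98.8 and 79.9 FPKM in 5C-E, far below the 173 and 191 FPKM of 5C and above the 0.708 and 0.542 FPKM of DMSO. It fell 2.48-fold (log2 -1.31 ± 0.26, adjusted p = 0.0019), with log2 -0.87 without 5C-F B, under the fold threshold (adjusted p = 0.017). Cyp3a25 was at 2.98 and 0.617 FPKM against 8.83 and 4.95 FPKM (adjusted p = 0.028), a call lost without 5C-E A (log2 -1.30, adjusted p = 0.22) or 5C-F B (adjusted p = 0.16). The Cyp3a subfamily was divided, since Cyp3a13 was at 32.4 and 22.4 FPKM against 12.6 and 9.74 FPKM (2.77-fold higher, adjusted p = 2.6e-04), a call that held under every alternative. Gstm3, a glutathione transferase, showed the same order of groups, at 18.1 and 13.7 FPKM against 89.5 and 60.4 FPKM, with 156 and 155 FPKM in 5C and 2.77 and 1.39 FPKM in DMSO (4.18-fold lower, adjusted p = 0.0002). The bile salt export pump Abcb11 fell 3.82-fold, from 2.47 and 2.33 FPKM to 0.592 and 0.523 FPKM, and the organic anion carrier Slco1a4 fell 3.78-fold, from 3.29 and 2.02 FPKM to 0.66 and 0.586 FPKM. For Cyp3a11 and Gstm3, then, all 4 libraries of the pair lay between DMSO and 5C, and 5C-F was the group closer to DMSO.

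**Figure D3:**
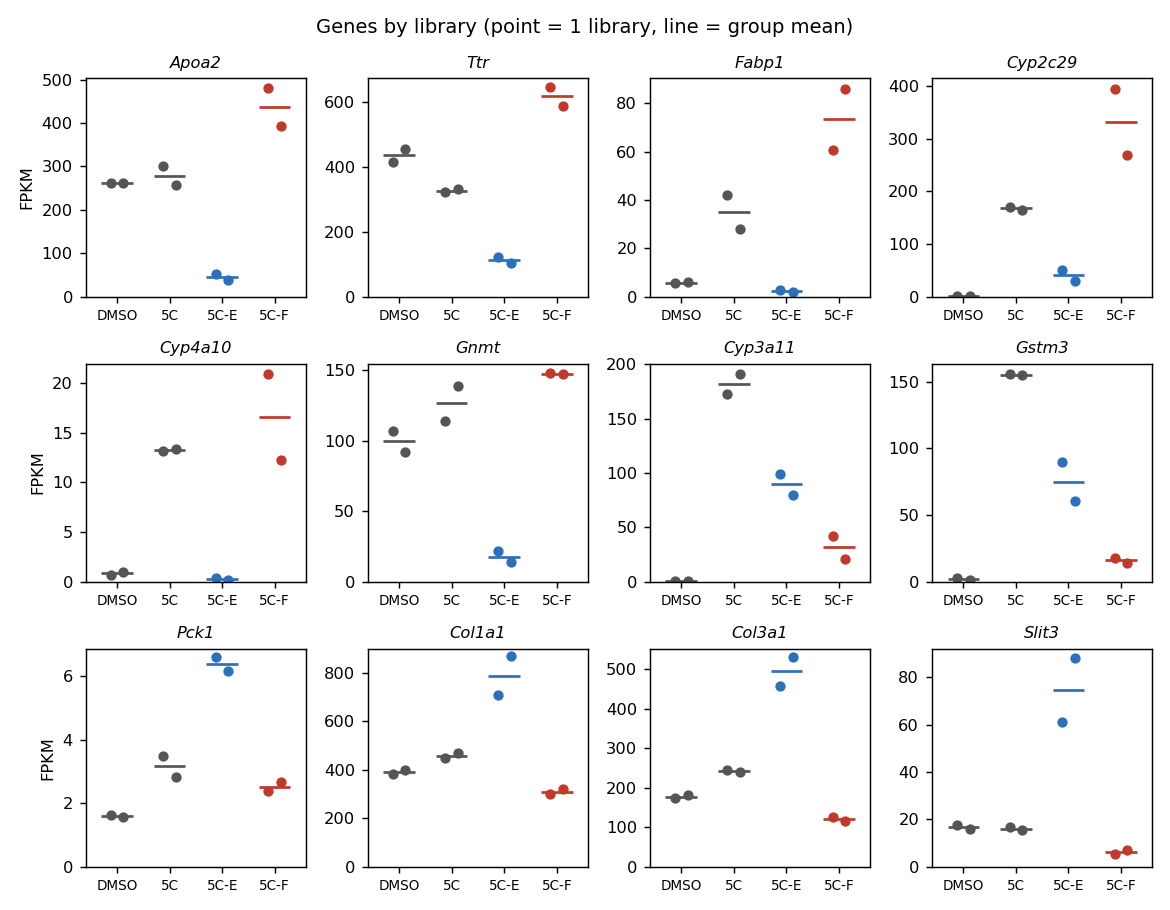
FPKM (linear axes from 0) of 12 genes in each library of DMSO, 5C, 5C-E and 5C-F, with 1 point per library and a line at the mean of 2. Apoa2, Ttr, Fabp1, Cyp2c29, Cyp4a10 and Gnmt are higher in 5C-F than in 5C-E, while Cyp3a11, Gstm3, Pck1, Col1a1, Col3a1 and Slit3 are lower, with Cyp3a11 and Gstm3 highest in 5C.

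Among the conjugating (phase II) enzymes, 10 of 27 were higher and Gstm3 alone was lower, with a median of 0.99. Gsta3, a glutathione transferase, was at 100 and 106 FPKM against 35.1 and 27.2 FPKM (3.72-fold, adjusted p = 4.9e-06), and Ugt2b36, one of a family of similar glucuronosyltransferases, rose 3.04-fold. Sult1b1, a sulfotransferase, was at 2.61 and 1.9 FPKM against 0.859 and 0.815 FPKM (adjusted p = 0.0055), a call lost without 5C-E A (log2 1.62, adjusted p = 0.052), 5C-E B (log2 1.57, adjusted p = 0.057) or 5C-F A (log2 1.31, adjusted p = 0.06).

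Bile acid genes were higher for 13 of 25 tested members, with Abcb11 and Slco1a4 lower, and had a median of 1.19. Slc10a1, the NTCP transporter that takes up bile salts from blood, was at 4.66 and 2.26 FPKM in 5C-F and 0.424 and 0.334 FPKM in 5C-E (10.3-fold, adjusted p = 0.00055). Akr1c6, a hydroxysteroid dehydrogenase, was at 4.19 and 3.44 FPKM against 0.297 and 0.286 FPKM (14.7-fold), and Akr1c18, its progesterone-metabolising relative, at 31.3 and 23.9 FPKM against 0.955 and 1.45 FPKM (25.9-fold), with 5C at only 2.1 and 2.64 FPKM. Cyp27a1, the first enzyme of the acidic synthesis pathway, rose 2.92-fold, from 9.99 and 10.7 FPKM to 24.2 and 29.7 FPKM. Transporters moved in both directions, since Slco1b2, an uptake carrier, rose 4.22-fold and Abcb4, the canalicular phospholipid exporter, 2.28-fold. The rate-limiting enzyme Cyp7a1 had only 42 and 14 counts in 5C-F and 0 in 5C-E (at least 16-fold), and Cyp8b1, which sets the balance of cholic acid, had 35 and 58 counts against 0 (at least 26.5-fold). Both calls rest on few counts and were lost without either 5C-E library, with adjusted p of 0.17 and 0.15 for Cyp7a1 and 0.16 and 0.15 for Cyp8b1, and without 5C-F A (0.14 and 0.068), and Cyp8b1 also without 5C-F B (0.081).

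Urea cycle and amino acid breakdown genes were higher for 15 of 28 members and lower for none (median 1.08), with 11 to 14 called when 1 library was left out. Gnmt, which consumes surplus S-adenosylmethionine, was at 148 and 147 FPKM in 5C-F and 21.9 and 13.8 FPKM in 5C-E (9.3-fold, adjusted p = 5.2e-07). Hpd, a tyrosine breakdown enzyme, was at 28.5 and 33.1 FPKM against 6.33 and 3.11 FPKM (7.32-fold), and Bhmt, which remethylates homocysteine, rose 5.75-fold. Cps1, the entry enzyme of the urea cycle, was at 94 and 61.8 FPKM against 33.1 and 24.8 FPKM (3.04-fold, adjusted p = 0.0017). Agxt, the glyoxylate-detoxifying aminotransferase, was low, at 1.84 and 0.897 FPKM against 0.178 and 0.343 FPKM, and its call was lost without 5C-E A (adjusted p = 0.19), 5C-E B (0.074) or 5C-F A (0.18), at log2 2.15, 3.11 and 1.91.

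Gluconeogenesis genes had a positive log2 fold change in 12 of 13 tested. Of these 13, 4 were called higher and 1 was called lower, with a median of 0.96. Tat, the tyrosine aminotransferase induced by glucocorticoid and cAMP, was at 53.7 and 61.3 FPKM in 5C-F and 12.8 and 13.1 FPKM in 5C-E (4.99-fold, adjusted p = 1e-06) and Fbp1, fructose bisphosphatase, rose 2.48-fold. G6pc, the glucose-releasing phosphatase, was at 1.85 and 1.4 FPKM against 0.409 and 0.609 FPKM (adjusted p = 0.028), with its call lost without 5C-E A (log2 1.56, adjusted p = 0.21), 5C-E B (log2 2.16, adjusted p = 0.085) or 5C-F A (log2 1.59, adjusted p = 0.15). Pck1, the cytosolic phosphoenolpyruvate carboxykinase and a textbook CREB target, was the exception, at 2.37 and 2.67 FPKM in 5C-F and 6.61 and 6.15 FPKM in 5C-E (2.25-fold lower, log2 -1.17 ± 0.28, adjusted p = 0.0089). In 5C it was at 3.5 and 2.82 FPKM and in DMSO at 1.63 and 1.57 FPKM. The libraries did not overlap, but the call was lost without 5C-F A (log2 -1.13, adjusted p = 0.068) or 5C-E A (log2 -1.14, adjusted p = 0.059).

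Glycolysis had 3 of 19 genes higher, none lower and a median of -0.14, which was 0.07 with the GC offset and ran from -0.31 without 5C-E A to -0.02 without 5C-E B. The count of higher genes was 1 without 5C-F B and 1 without 5C-E B, and 1 gene was called lower without 5C-F A and 1 without 5C-E A. Among the 3 were the liver forms Slc2a2 (the GLUT2 glucose transporter, 27.1 and 24.7 FPKM against 9.7 and 7 FPKM, 3.49-fold, adjusted p = 4.1e-05) and Pklr (the liver pyruvate kinase, 9.66 and 11.4 FPKM against 5.77 and 5.52 FPKM). The Pklr call (log2 1.06, adjusted p = 0.022) was lost without any 1 library, at log2 0.99 to 1.14 and adjusted p from 0.069 to 0.12. The counterparts found in most other tissues, Hk2 (log2 -0.85) and Pkm (log2 -0.57), were lower without reaching the fold threshold.

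In lipid synthesis, 3 of 20 lipogenic genes were higher and none lower (median 0.32, which was 0.20 without 5C-F B, 0.18 without 5C-E A and 0.09 with limma on either log scale). The GC offset gave 5 higher. Thrsp (the lipogenic regulator Spot 14) rose 3.53-fold, from 1.03 and 1.66 FPKM to 4.61 and 3.82 FPKM, and Dgat2, which makes triglyceride, 2.72-fold. Acss2, which makes acetyl-CoA from acetate, was at 5.11 and 5.01 FPKM against 2.39 and 2.85 FPKM (log2 1.12, adjusted p = 0.00031) and dropped under the fold threshold without 5C-E A (log2 0.97, adjusted p = 0.013). Acly, the target of activated ETC-1002, was not called, at 28.9 and 26.5 FPKM in 5C-F and 43.1 and 50.1 FPKM in 5C-E (log2 -0.58 ± 0.21, adjusted p = 0.073), with 29.2 and 30.4 FPKM in 5C. The groups did not overlap, and the 5C-F libraries were near those of 5C. Of 24 sterol synthesis genes, only 1 was called, none without 5C-E A, where 1 was called lower as it was without 5C-F B, and the list had a median of 0.08 that changed sign under 5 alternatives.

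Slc27a2, the acyl-CoA synthetase that activates ETC-1002, was at 23.2 and 21.3 FPKM in 5C-F and 6.51 and 4.08 FPKM in 5C-E (4.73-fold, log2 2.24 ± 0.25, adjusted p = 1.3e-05). It was at 17 and 13.8 FPKM in 5C and 11.4 and 11.8 FPKM in DMSO, so its lowest level of these 4 groups was in the cells deprived of the compound. Of the other 9 tested genes of the AMPK list, Prkab2, a regulatory beta subunit of AMPK, fell 2.27-fold, from 8.21 and 6.72 FPKM in 5C-E to 2.58 and 3.29 FPKM in 5C-F (adjusted p = 0.001). The catalytic subunit Prkaa1 was at 11.8 and 7.73 FPKM against 13.4 and 12.9 FPKM (log2 -0.25 ± 0.23, adjusted p = 0.51).

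Forskolin was present in 5C-E and absent from 5C-F, and cAMP response genes were looked at for that reason. Of 22 tested genes of the list, 2 were higher in 5C-F (1 without 5C-E A), 4 were lower, and the median was -0.24, beside -0.01 for all genes. With the GC offset the list's median was -0.02 beside 0.07 for all genes, and limma on log2(FPKM + 1) called 1 gene of the list lower. Phosphodiesterases, which break down cAMP and are induced by it, made up 3 of the 4 lower genes. Pde4b was at 0.496 and 0.261 FPKM in 5C-F and 2.06 and 2.98 FPKM in 5C-E (5.86-fold, log2 -2.55 ± 0.32, adjusted p = 4.1e-05), with 0.965 and 1.19 FPKM in 5C and 0.616 and 0.526 FPKM in DMSO. Pde4d was at 0.202 and 0.238 FPKM against 0.771 and 0.985 FPKM (3.55-fold, adjusted p = 0.0041), and Pde10a at 0.0844 and 0.141 FPKM against 0.686 and 0.734 FPKM (5.62-fold, adjusted p = 0.00036). All 3 were lower in both 5C-F libraries than in either 5C library. The fourth lower gene was the immediate early gene Nr4a1, a nuclear receptor, at 0.78 and 2.58 FPKM against 4.57 and 3.96 FPKM, and its call (log2 -1.19, adjusted p = 0.047) was lost without 5C-E A (log2 -1.11, adjusted p = 0.19), 5C-E B (log2 -1.29, adjusted p = 0.11) or 5C-F A (log2 -0.60, adjusted p = 0.33). The immediate early genes Fos (26.6 and 33.8 FPKM against 33.7 and 31.9 FPKM) and Crem (2.79 and 2.56 FPKM against 2.82 and 2.5 FPKM) overlapped between the groups.

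Igfbp1, an insulin-like growth factor binding protein that glucagon induces in liver, ran against the phosphodiesterases. It was at 2274 and 2016 FPKM in 5C-F and 536 and 517 FPKM in 5C-E (4.59-fold higher, adjusted p = 1.6e-06), with 1157 and 992 FPKM in 5C and 1425 and 1311 FPKM in DMSO. In the same libraries Pck1 was lower and Tat higher, so liver genes that cAMP can induce moved in both directions.

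The machinery that makes and senses cAMP had 4 of 36 genes lower, 2 higher and a median of -0.40. The median was -0.05 with the GC offset, and the count of lower genes was 8 with total counts alone, 6 without 5C-F B, 2 without 5C-E B and 1 without 5C-F A. All 4 lower genes encode adenylate cyclases, of which the product of Adcy9 is known to be insensitive to forskolin. Adcy5 was at 0.863 and 1 FPKM in 5C-F and 2.98 and 4.33 FPKM in 5C-E (3.48-fold, adjusted p = 0.00029), and its call held with each library left out. Adcy6, the most abundant of them in 5C-E, was at 2.96 and 4.6 FPKM against 10.2 and 12.7 FPKM (2.71-fold, adjusted p = 0.0032), a call lost without 5C-F A (log2 -1.19, adjusted p = 0.065). Adcy9 was at 0.457 and 0.842 FPKM against 2.22 and 2.4 FPKM, with its call (log2 -1.67, adjusted p = 0.018) lost without 5C-E A (log2 -1.75, adjusted p = 0.066), 5C-E B (log2 -1.61, adjusted p = 0.084) or 5C-F A (log2 -1.33, adjusted p = 0.17). Adcy8 was at 0.038 and 0.0701 FPKM against 0.199 and 0.368 FPKM, with its call (log2 -2.22, adjusted p = 0.024) lost without 5C-E B, 5C-F A or 5C-F B, at adjusted p of 0.18, 0.16 and 0.051 and log2 -1.71, -1.88 and -2.67. The glucagon receptor Gcgr was at 5.38 and 6.02 FPKM against 3.7 and 3.77 FPKM (log2 0.78 ± 0.30, adjusted p = 0.093). The protein kinase A catalytic subunit Prkaca was at 52.4 and 60.2 FPKM against 71 and 74.4 FPKM (log2 -0.20 ± 0.17, adjusted p = 0.46).

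CREB binds the palindrome TGACGTCA. It was found in 448 of 15583 promoter windows (2.87%), in 11 of 843 genes called higher (1.3%), in 24 of 788 called lower (3.05%) and in none of the 62 plasma protein promoters. In the cAMP response list it was present in Sik1, Dusp1 and Ppargc1a, and in the machinery list in Adcy8. These 4 sites are shown because they are the places in either list where the textbook element lies near the start, each with 20 bases on both sides, on the minus strand of GRCm39 and with the element in capitals. They are at chr17:32074990-32075037, chr17:26727562-26727609, chr5:51711320-51711367 and chr15:64795024-64795071, with the element at -199 to -192, -96 to -89, -83 to -76 and -64 to -57.
Sik1: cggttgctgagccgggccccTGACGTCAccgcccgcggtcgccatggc
Dusp1: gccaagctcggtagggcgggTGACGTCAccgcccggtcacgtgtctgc
Ppargc1a: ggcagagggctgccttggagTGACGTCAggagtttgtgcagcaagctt
Adcy8: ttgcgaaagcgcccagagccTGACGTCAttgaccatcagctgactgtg
Of the genes with this element, Sik1, a kinase that restrains CREB coactivators, was at 6.95 and 8.69 FPKM in 5C-F and 10.8 and 14.8 FPKM in 5C-E (log2 -0.55 ± 0.23, adjusted p = 0.12). Dusp1, a MAP kinase phosphatase, was at 47.1 and 50.8 FPKM against 26.6 and 30.1 FPKM (log2 0.96 ± 0.17, adjusted p = 0.0011), just under the fold threshold and in the other direction. Ppargc1a, the coactivator PGC-1 alpha, was at 0.787 and 0.617 FPKM against 0.746 and 0.395 FPKM (log2 0.47 ± 0.47, adjusted p = 0.55). Genes with the element thus lay on both sides of 0.

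The genes with the largest decreases in 5C-F are given first. Slit3 (chr11:35011789-35602786), a secreted guidance protein of mesenchymal cells, was at 5.58 and 7.11 FPKM in 5C-F and 61.2 and 87.9 FPKM in 5C-E (10.5-fold, log2 -3.39 ± 0.20, adjusted p = 4.4e-08). A2m, the protease inhibitor alpha-2-macroglobulin, was at 2.35 and 2.46 FPKM against 31.8 and 29.1 FPKM (11.3-fold), and Sfrp1, a secreted Wnt antagonist, at 1.67 and 2.13 FPKM against 19.1 and 20.1 FPKM (9.19-fold). In 5C the same genes stood at 16.6 and 15.7 FPKM, 6.64 and 6.68 FPKM, and 6.75 and 5.64 FPKM, between both groups. Ecel1, an endopeptidase, had the largest decrease of the 12 leading genes, at 0.118 and 0.537 FPKM against 10.2 and 16.6 FPKM (36.3-fold, adjusted p = 7.7e-07), with 2.69 and 2.91 FPKM in 5C. Tnfrsf9, the costimulatory receptor 4-1BB, was 11.9-fold lower, Nfasc, a cell adhesion protein, 8.2-fold, Fgf11 7.41-fold and Car12, a membrane carbonic anhydrase, 7.27-fold. Cthrc1, a secreted protein of activated fibroblasts, was at 1.69 and 4.06 FPKM against 22.4 and 23.5 FPKM (7.14-fold), Il22ra1, the interleukin 22 receptor, at 0.744 and 1.87 FPKM against 9.23 and 11.3 FPKM (7.04-fold), Igfbp5 6.7-fold lower and Ptx3, a pentraxin of inflamed tissue, 6.69-fold lower. The calls of all 12 held under each alternative.

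Stellate cells and fibroblasts make the scar matrix of the injured liver, and markers of these cells were lower in 5C-F for 9 of 30 tested genes and higher for 3, with a median of -0.69. The count of lower genes was 7 with the GC offset and between 9 and 12 when 1 library was left out. Matrix genes made up most of the decrease. Col3a1 was at 127 and 117 FPKM in 5C-F and 458 and 531 FPKM in 5C-E (3.6-fold, log2 -1.85 ± 0.15, adjusted p = 7.7e-07), with 246 and 240 FPKM in 5C and 174 and 181 FPKM in DMSO. Col1a2 was at 10.5 and 10.5 FPKM against 48 and 51.5 FPKM (4.2-fold), and Col6a1 at 120 and 135 FPKM against 431 and 427 FPKM (2.99-fold, adjusted p = 3.7e-06). Col1a1 was at 298 and 320 FPKM against 706 and 870 FPKM (2.27-fold, adjusted p = 0.00028) and lost its call with the GC offset. Timp1, the inhibitor of matrix metalloproteinases, fell 2.5-fold. The 5C-E libraries exceeded 5C and DMSO for Col3a1, Col6a1 and Timp1.

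Other markers of the same cells did not fall. Dcn was at 336 and 262 FPKM against 294 and 208 FPKM (log2 0.43 ± 0.18, adjusted p = 0.13) and Lum at 77.9 and 51.5 FPKM against 66.5 and 49.1 FPKM (log2 0.34 ± 0.22, adjusted p = 0.32), and both overlapped between the groups. Reln, the extracellular glycoprotein reelin, rose 7.83-fold, from 0.516 and 0.388 FPKM to 3.5 and 2.78 FPKM (adjusted p = 1.2e-06), and Lrat, the retinol esterase of quiescent stellate cells, was at 1.65 and 0.956 FPKM against 0.221 and 0.0916 FPKM (9.38-fold, adjusted p = 0.0016). The summed marker level was 2439 and 2496 FPKM in 5C-F and 5342 and 5683 FPKM in 5C-E, and none of the 30 genes was at 0 in all 4 libraries. The part of stromal cell number in the lower matrix genes and in the higher hepatocyte genes was not tested.

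Contractile and cytoskeletal targets of SRF and YAP had 4 of 24 genes higher, 1 lower and a median of 0.00, which was -0.12 without 5C-E A and 0.10 without 5C-E B. Acta2, smooth muscle actin, was at 110 and 105 FPKM in 5C-F and 50.7 and 43.3 FPKM in 5C-E (2.58-fold, adjusted p = 0.00024), below the 233 and 215 FPKM of 5C and the 255 and 300 FPKM of DMSO. Myh11, smooth muscle myosin, was at 0.432 and 0.867 FPKM against 0.184 and 0.0645 FPKM (5.75-fold, adjusted p = 0.00039). Acta2 and Myh11 therefore ran opposite to the collagens within the same libraries. Tagln (transgelin) was at 1.22 and 1.08 FPKM against 0.594 and 0.185 FPKM and Vcl (vinculin) at 9.04 and 9.51 FPKM against 35.7 and 33.5 FPKM. Neither call was stable. That of Tagln (log2 1.71, adjusted p = 0.035) was lost without 5C-E B (log2 1.12, adjusted p = 0.28), 5C-F A (log2 1.58, adjusted p = 0.14) or 5C-F B (log2 1.84, adjusted p = 0.066), and that of Vcl (log2 -1.73, adjusted p = 0.025) without any 1 library, at log2 -1.71 to -1.78 and adjusted p from 0.077 to 0.14.

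SRF binds the CArG box, which was found in 210 of 15583 promoter windows (1.35%) and in 4 of the 24 promoters of this list (16.7%). The boxes of Tagln (chr9:45847439-45847488, minus strand, -64 to -55) and Vcl (chr14:20979219-20979268, plus strand, -227 to -218) are shown, with 20 bases on both sides, because these genes carry the same element and moved in opposite directions.
Tagln: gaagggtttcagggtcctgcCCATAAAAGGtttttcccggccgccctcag
Vcl: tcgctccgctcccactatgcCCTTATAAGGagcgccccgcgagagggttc
The others, Cnn2 and Srf, were not called, with log2 fold changes of 0.07 and -0.05.

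Cell cycle genes were lower in 5C-F for 11 of 40 tested genes and higher for none, with a median of -0.69. The count of lower genes was 5 without 5C-F A, 5 without 5C-E B and 17 with total counts alone, and 1 gene was called higher without 5C-E B and 1 with the GC offset. Several of the lower genes act in mitosis. Top2a, the topoisomerase that separates chromosomes, was at 1.76 and 1.92 FPKM against 4.86 and 5.32 FPKM (2.46-fold, adjusted p = 8.8e-05), Kif20a, a kinesin of cytokinesis, was 3.74-fold lower, Cenpf, a kinetochore protein, 3.01-fold and Nusap1, a spindle protein, 2.73-fold. Cenpe, a kinetochore motor, was at 0.383 and 0.414 FPKM against 1.42 and 0.991 FPKM, with its call (log2 -1.43, adjusted p = 0.0073) lost without 5C-E A (log2 -1.17, adjusted p = 0.086) or 5C-F A (log2 -1.41, adjusted p = 0.057). Genes of DNA replication differed among themselves. Rrm2, a ribonucleotide reductase subunit, was at 8.3 and 7.99 FPKM against 15.3 and 25.1 FPKM (log2 -1.14, adjusted p = 0.0048), a call lost without 5C-E B (log2 -0.74, adjusted p = 0.11), whereas Pcna, the polymerase clamp, was at 20.7 and 20.8 FPKM against 20.3 and 20.8 FPKM (log2 0.18 ± 0.17, adjusted p = 0.5). Mki67 was at 1.12 and 1.36 FPKM against 2.64 and 2.41 FPKM (log2 -0.86 ± 0.23, adjusted p = 0.017), under the fold threshold, with 1.14 and 0.699 FPKM in 5C.

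Macrophage markers were higher in 5C-F for 16 of 25 tested genes and lower for none, with a median of 1.30, and between 13 and 15 were called when 1 library was left out. Vsig4, the complement receptor of Kupffer cells, was at 105 and 87.3 FPKM in 5C-F and 26.6 and 25.5 FPKM in 5C-E (4.16-fold, adjusted p = 2.7e-06), with 38.2 and 37.4 FPKM in 5C and 156 and 172 FPKM in DMSO. Cbr2, a carbonyl reductase found in tissue macrophages, was 6.22-fold higher and Cd5l, a secreted survival factor of macrophages, 3.24-fold. Lyz2 was at 766 and 826 FPKM against 294 and 305 FPKM (2.99-fold, adjusted p = 0.00011). Marco, a scavenger receptor, was at 3.62 and 11 FPKM against 1.65 and 1.78 FPKM, with its call (log2 2.23, adjusted p = 0.0022) lost without 5C-F B (log2 1.29, adjusted p = 0.058). Not every marker moved, since Mrc1, the mannose receptor, was at 30 and 25.9 FPKM against 31.2 and 30.9 FPKM. The summed marker level was 2506 and 2834 FPKM in 5C-F and 1094 and 1230 FPKM in 5C-E, with 855 and 949 FPKM in 5C and 6873 and 7000 FPKM in DMSO. The Kupffer markers Clec4f and Timd4 were at 0.784 FPKM or less in all 4 libraries. Hepatocyte and macrophage transcripts were thus both higher in 5C-F, and the part of macrophage number in the results was not tested.

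Inflammatory genes moved in both directions, with 7 of 30 higher, 3 lower and a median of 1.05. The median was 0.52 without 5C-F B, 0.65 without 5C-E A and 0.19 with limma on log2(FPKM + 1), and 1 gene was called lower without 5C-F A and 1 without 5C-E A. Chemokines that attract monocytes made up most of the higher genes. Ccl8 was at 20.8 and 19.2 FPKM in 5C-F and 1.93 and 2.76 FPKM in 5C-E (9.62-fold, adjusted p = 3.3e-05), with 0.933 and 1.78 FPKM in 5C and 42.4 and 42.8 FPKM in DMSO. Ccl2 was at 77.2 and 93.4 FPKM against 25.3 and 21.5 FPKM (4.09-fold), and Ccl6 at 50.2 and 61.5 FPKM against 21.4 and 20.4 FPKM (3-fold). Ccl8 and Ccl6, like the summed macrophage level given above, were higher in DMSO than in 5C-F and higher in 5C-F than in 5C-E, while Ccl2 was higher in 5C-F than in DMSO (44 and 43.9 FPKM). The phagocyte NADPH oxidase, which makes superoxide, had 4 of 7 genes higher and none lower (median 1.06). Ncf4, a cytosolic subunit, rose 2.81-fold, from 3.07 and 3.32 FPKM to 8.02 and 7.96 FPKM, and Nox4, the form found in hepatocytes and fibroblasts, 2.66-fold. Cybb, the catalytic subunit of phagocytes, was at 8.45 and 6.03 FPKM against 4.71 and 2.92 FPKM, with its call (log2 1.10, adjusted p = 0.0052) lost without 5C-E B (log2 0.80, adjusted p = 0.097) or 5C-F A (log2 0.79, adjusted p = 0.089). Of 8 tested genes of MHC class II only Cd74, the invariant chain, was called, at 8.61 and 8.63 FPKM against 2.29 and 2.21 FPKM (4.31-fold, adjusted p = 0.00016).

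Markers of the remaining liver cell types differed less uniformly. Cholangiocyte markers had 4 of 17 genes higher, none lower and a median of 0.28, which was -0.02 without 5C-F B, 0.07 without 5C-E A and 0.53 without 5C-F A, where 1 gene was called lower. Tspan8, a tetraspanin, was at 167 and 160 FPKM against 30.3 and 29.5 FPKM (6.15-fold, adjusted p = 6.4e-08), Sox9, the biliary and progenitor factor, at 14 and 13.4 FPKM against 5.15 and 6.49 FPKM (2.65-fold), and Spp1, osteopontin, at 3243 and 2936 FPKM against 1380 and 1410 FPKM (2.5-fold). The Krt23 call (log2 2.07, adjusted p = 0.0023) was lost without 5C-E A (log2 1.58, adjusted p = 0.055). The defining markers Epcam and Krt7 overlapped between the groups, at 9.73 and 20.6 FPKM against 14.2 and 20.6 FPKM and at 23.6 and 34.1 FPKM against 29.3 and 32.2 FPKM. Spp1 made up most of the summed level of 3791 and 3532 FPKM in 5C-F and 1712 and 1809 FPKM in 5C-E. Endothelial markers had 1 of 18 genes higher and 1 lower, the count of higher genes being 2 without 5C-E B and 0 without 5C-E A, with summed levels of 58.5 and 67.2 FPKM against 74.5 and 80.3 FPKM. Kdr, the VEGF receptor 2, fell 4.23-fold, from 23 and 21.2 FPKM to 4.48 and 4.83 FPKM (adjusted p = 1.2e-05). Plvap, a diaphragm protein of fenestrated vessels, was at 5.02 and 2.5 FPKM against 0.0829 and 0.447 FPKM, a call (log2 4.01, adjusted p = 0.0041) lost without 5C-E A (log2 3.22, adjusted p = 0.067) or 5C-F A (log2 3.37, adjusted p = 0.058). The defining endothelial genes Pecam1, Cdh5 and Tie1 had no count in 5C-F and at most 0.262 FPKM in 5C-E. Lymphocyte and neutrophil markers summed to 1.16 and 1.09 FPKM against 3.97 and 1.59 FPKM, with Cd3e, Cd79b and Ly6g at 0 in all 4 libraries and no gene of 7 called, S100a8, a neutrophil calcium-binding protein, being at 0.744 and 0.686 FPKM against 3.09 and 1.24 FPKM (adjusted p = 0.13). DESeq2 and limma called none of these 7 genes either, and at an unadjusted p under 0.05 with the fold threshold edgeR counted 1 higher and 1 lower.

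**Figure D4:**
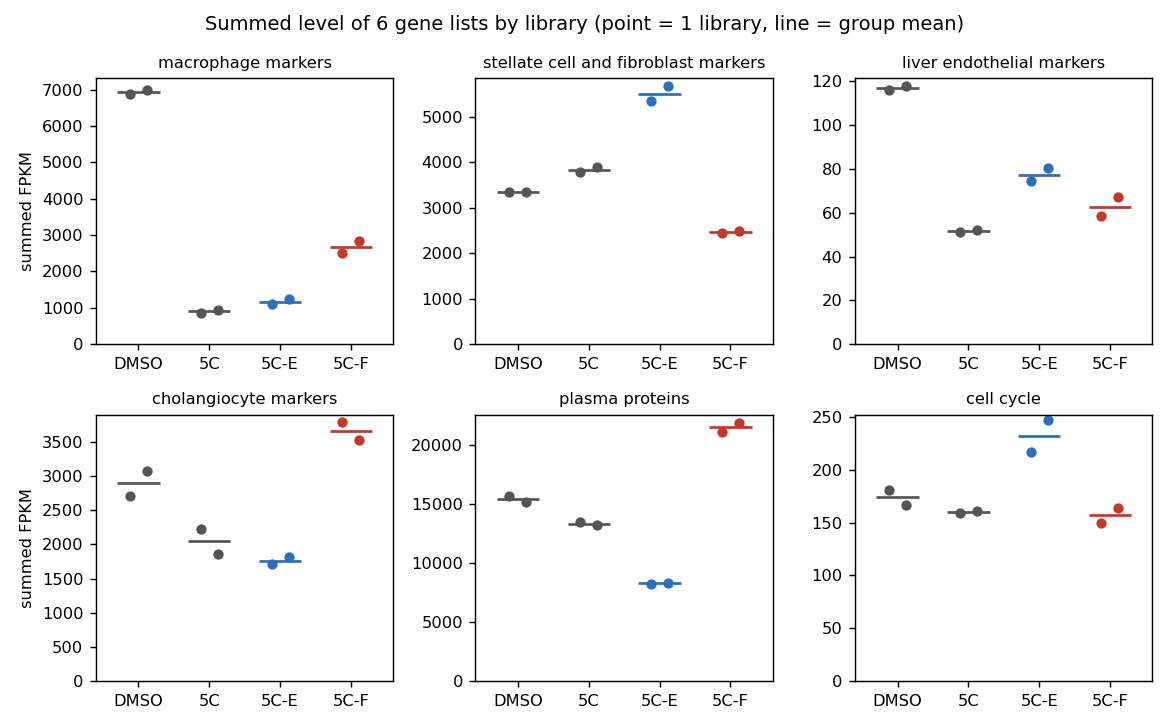
Summed FPKM (linear axes from 0) of the macrophage, stellate and fibroblast, endothelial, cholangiocyte, plasma protein and cell cycle lists in each library of DMSO, 5C, 5C-E and 5C-F, with 1 point per library and a line at the mean of 2. Macrophage, cholangiocyte and plasma protein sums are higher in 5C-F than in 5C-E, and stellate and fibroblast and cell cycle sums are lower.

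The smaller lists placed these differences beside other liver programmes. Major urinary proteins, which growth hormone induces, led the growth hormone list, in which 3 of 15 genes were higher and none lower, with a median of -0.13. That median was 0.08 without 5C-F B, 0.04 without 5C-E A and 0.17 with the GC offset, and edgeR counted 2 as lower at an unadjusted p under 0.05 with the fold threshold and 2 as lower with no filter on low counts. Mup20 was at 40.9 and 24.2 FPKM against 1.12 and 0.33 FPKM (49.7-fold, adjusted p = 1.4e-06) and Mup3 at 6.99 and 4.66 FPKM against 1.7 and 1.03 FPKM (4.81-fold), with the caution that Mup copies share reads. The Igfals call (log2 1.44, at an adjusted p that rounds to 0.05) was lost without any 1 library, at log2 1.39 to 1.46 and adjusted p from 0.12 to 0.22. The growth hormone receptor Ghr was at 12.3 and 9.51 FPKM against 15.5 and 11.5 FPKM (log2 -0.13 ± 0.21, adjusted p = 0.74). Pericentral genes had 6 of 15 higher and 1 lower (median 0.52, which was 0.34 without 5C-F A and 0.05 with limma on log2(FPKM + 1)), and between 4 and 6 were called higher when 1 library was left out. Cyp2e1 and Cyp1a2 were among them, and Gulo, the last enzyme of vitamin C synthesis, was at 47.3 and 41 FPKM against 11.9 and 9.47 FPKM (4.66-fold, adjusted p = 7.6e-07). Wnt targets of the same list were mixed. Tbx3 was at 0.924 and 1.09 FPKM against 0.323 and 0.416 FPKM (log2 1.61, adjusted p = 0.013), a call lost without 5C-E A (log2 1.41, adjusted p = 0.13), 5C-E B (log2 1.80, adjusted p = 0.058) or 5C-F B (log2 1.53, adjusted p = 0.051). Rnf43 was at 1.67 and 2.74 FPKM against 1.27 and 1.14 FPKM (log2 1.03, adjusted p = 0.028), a call lost without 5C-E A (log2 1.08, adjusted p = 0.12), 5C-E B (log2 0.95, adjusted p = 0.16) or 5C-F B (log2 0.68, adjusted p = 0.22). Glul, glutamine synthetase, was at 40.4 and 39.8 FPKM against 40 and 38.9 FPKM, Axin2 had a log2 fold change of -0.76 (adjusted p = 0.042), and Lgr5 was at 0.0352 and 0.116 FPKM against 0.495 and 0.453 FPKM (log2 -2.49, adjusted p = 0.005), a call lost without 5C-F A (log2 -1.90, adjusted p = 0.057).

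Antioxidant genes of the NRF2 list had 5 of 22 higher and none lower, with a median of 0.58. Gclc, the rate-limiting enzyme of glutathione synthesis, was at 43.3 and 42.8 FPKM against 17.1 and 17.5 FPKM (2.8-fold, adjusted p = 4.9e-05), Slc7a11, the cystine carrier, rose 2.6-fold and Cat, catalase, 2.27-fold. Ftl1, ferritin light chain, was at 479 and 522 FPKM against 215 and 303 FPKM, with its call (log2 1.12, adjusted p = 0.0021) lost without 5C-E A (log2 0.87, adjusted p = 0.06). Nqo1, a standard NRF2 target, was at 5.9 and 5.04 FPKM against 5.5 and 3.37 FPKM (log2 0.47 ± 0.35, adjusted p = 0.4). Interferon genes had 3 of 25 higher and 1 lower, or 2 lower without 5C-E B, with a median of 0.44 that was 0.29 without 5C-F A and 0.27 without 5C-E B. Usp18 and Ifit1 rose 2.76-fold and 3.33-fold, the Ifit3 call (log2 1.32, adjusted p = 0.047) was lost without any 1 library, at log2 0.94 to 1.82 and adjusted p from 0.061 to 0.32, and Oasl2 fell 2.08-fold, from 21.8 and 22.9 FPKM to 10.1 and 9.03 FPKM, and was under the fold threshold without 5C-F B (log2 -0.94, adjusted p = 0.0072).

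Stress and death genes showed few calls. In the integrated stress and unfolded protein list none of 23 genes was called with all 4 libraries, although 3 were called higher without 5C-E B, 2 without 5C-F A and 1 without 5C-F B, and 1 lower without 5C-E A, and Hspa5, the chaperone BiP, was at 331 and 312 FPKM against 381 and 391 FPKM (log2 -0.09 ± 0.18, adjusted p = 0.78). In the apoptosis and p53 list 1 of 30 was higher and 1 lower. Gdf15, a stress-induced cytokine, was at 23.6 and 27.9 FPKM against 8.85 and 11.9 FPKM (2.8-fold, adjusted p = 0.00041), and the call of Bmf (log2 -1.03, adjusted p = 0.0077) was lost without 5C-E A (log2 -0.97, adjusted p = 0.065) or 5C-F A (log2 -0.70, adjusted p = 0.11). None of 17 clock genes was called, Nfil3, a repressor of that circuit, being at 37.1 and 35.1 FPKM against 43.8 and 50.7 FPKM (log2 -0.22 ± 0.16, adjusted p = 0.41). DESeq2 and limma with either pseudocount also called none in these 2 lists without a call, and at an unadjusted p under 0.05 with the same fold threshold edgeR counted none in either, although 2 clock genes were called higher with the GC offset 2 without 5C-F B and 1 without 5C-E A. At any fold, it counted 10 of 23 stress genes and 5 of 17 clock genes at that p. Of 14 mitochondrially encoded genes, 6 were called higher without 5C-F B and none without 5C-F A or 5C-E B, and the list's median of 0.63 ran from 0.14 to 0.98 when 1 library was left out. With all libraries only mt-Nd6 was called, at 2020 and 1115 FPKM against 827 and 680 FPKM, and that call (log2 1.24, adjusted p = 0.003) was lost without 5C-E B (log2 1.10, adjusted p = 0.051) or 5C-F A (log2 0.69, adjusted p = 0.088). Since strand handling is not stated, reads of mt-Nd6 cannot be told from those of the genes on the opposite mitochondrial strand.

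**Figure D5:**
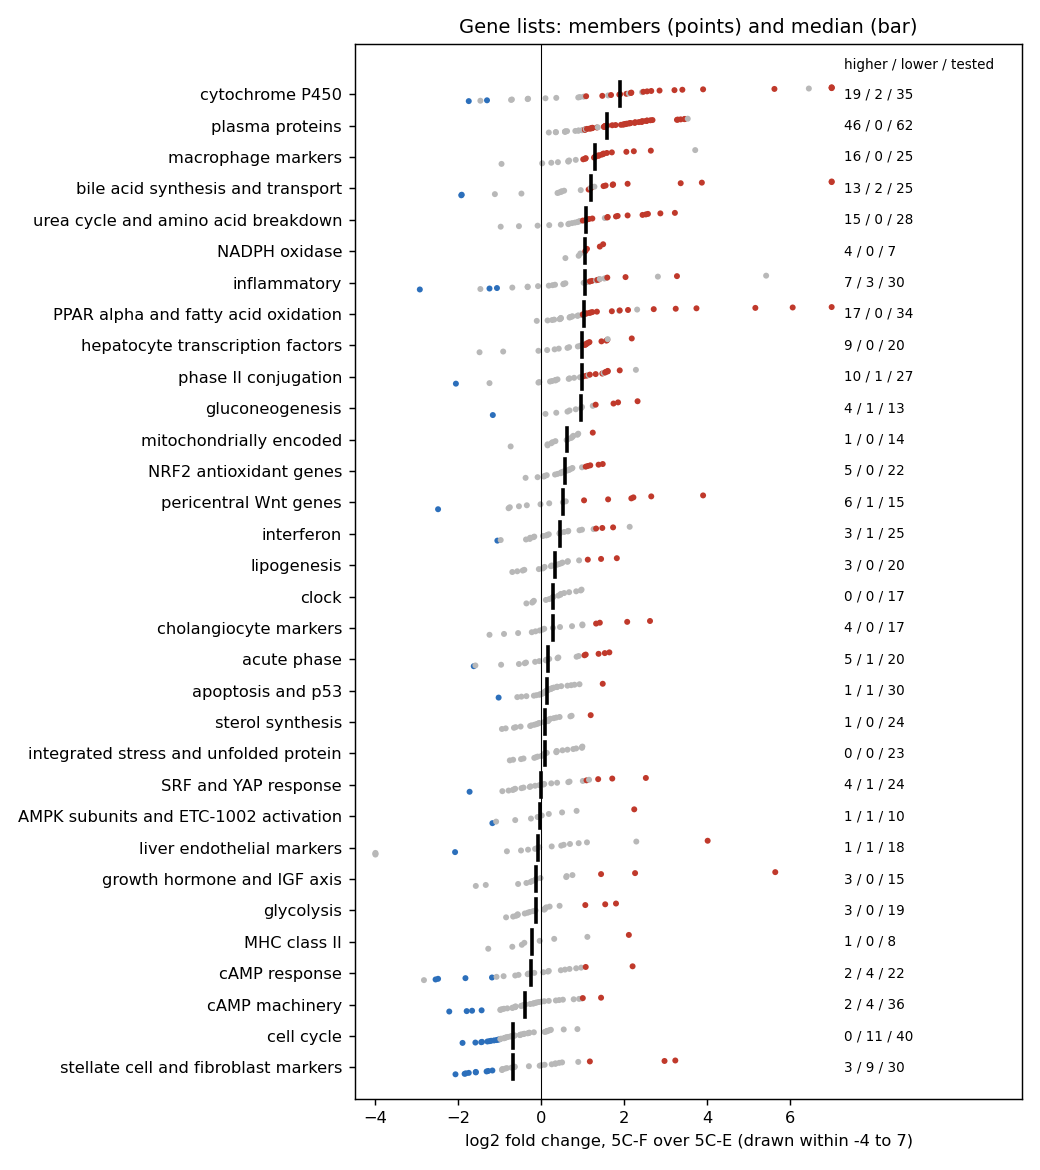
Log2 fold change (5C-F over 5C-E) of every tested member of 32 gene lists, with called genes coloured, a bar at each list's median and the number of genes called higher, called lower and tested at the right, and values past the ends of the scale drawn at them. The lymphocyte and neutrophil list, with 7 tested genes at 3.09 FPKM or less, is not drawn, and the medians shown run from 1.90 for cytochrome P450 to -0.69 for stellate and fibroblast markers and for cell cycle genes, against -0.01 for all genes.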

How the data were processed

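Bulk RNA-seq of cultured dHeps was analysed from deposited tables for 13 libraries. The deposited counts were raw counts per gene, and per the labels the authors made them with featureCounts of Subread on GRCm39 and ran DESeq2 (strand handling is not given in the sources used here). The deposited FPKM values, used here for levels, are the authors' own and equal counts divided by gene length and column total for 27140 of 27141 genes within 0.2%, the rule being inferred from the values. Even numbers made up 71.3% of counts from 1 to 20, so mates of a pair appear to have been counted separately, and counting intervals, which cover counting error only, are too narrow.

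The test was edgeR 4.0.16 (quasi-likelihood, TMM, R 4.3.3) on the deposited counts of all 13 libraries, with 1 mean per group, no covariate and filterByExpr with a minimum count of 10. The biological coefficient of variation was 0.261 with 6 residual degrees of freedom. The script was tested on simulated data. The floor for genes at 0 was 3 counts over the group, and the bounds set by it are too high where both mates were counted.

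Alternatives were DESeq2 1.42.0, limma 3.58.1 on log2(FPKM + 1) and log2(FPKM + 0.1), other scalings and filters, a GC and length offset, the 4 libraries alone and each library left out. The pair and the gene lists were chosen with earlier results of these data known. Named genes were the 12 largest changes in each direction among called genes with protein names, no overlap between the groups and a mean of 5 FPKM or more in the higher group and, in each list, at most 4 called genes by size of change, or the most abundant where none was called, with Alb, Acly, Slc27a2, Pck1, Hnf4a, Foxa2 and Ppara. Other genes, named for their known role, were chosen after their values were seen. Promoter windows came from the GRCm39 genome with GENCODE vM39, in which 26905 of the 27141 genes matched. Some results are not reported here.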

Additional observations from a re-analysis of the deposited data

How the results depend on the processing

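Depth limits low genes most: 19884 of 27141 genes could be tested, and calls such as those of Cyp7a1 and Cyp8b1 rest on at most 58 counts. With 2 libraries in each group, 81 of 267 called list members and named genes other than Alb lost their call in at least 1 fit that left out a library, and 163 were called in every setting that tested them. The numbers called were 884 higher and 854 lower, and between 636 and 886 higher and between 593 and 1048 lower when 1 library was left out. Limma on log2(FPKM + 1) gave 429 higher and 537 lower, and fewer higher members of the PPAR alpha (10 of 34), bile acid (6 of 25), urea cycle (8 of 28), NADPH oxidase (1 of 7) and NRF2 (1 of 22) lists. Without the fold threshold, genes higher in 5C-F than in 5C-E numbered 1699 and genes lower in 5C-F than in 5C-E numbered 1645. The cause of the lower limma counts was not tested. The albumin ratio was 6.53 in FPKM and 7.38 in CPM. No called gene reversed. The medians of the glycolysis, sterol, AMPK, acute phase, growth hormone, stress, apoptosis, endothelial and cholangiocyte lists, none beyond 0.28 in size, changed sign under at least 1 alternative. No paired analysis was run, because the running numbers of the columns match no title, and a block by column order was not tested.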
